A study of Brassica oleracea var. italica with 5 samples.

Results

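Seeds of broccoli that had taken up water overnight were compared with euphyllas, the name given to the first true leaves, from 11 day sprouts. A unigene, which is an assembled transcript named by its best database match, entered the comparison when the libraries of both tissues together held at least 20 reads of it. This took in 16649 of the 19441 unigenes of the series, among them 77 at exactly 20 reads, and 52 more unigenes had 19 reads. All plants were of the cultivar Qingxiu. The seeds, labelled as germinated seed of day 0, had been shaken in NaClO, washed and left on moist filter paper, and the euphyllas came from sprouts raised in soil under long days with nutrient solution. The cotyledons of 3, 7 and 11 day sprouts were sequenced as well, and their values are set beside some genes. Each of the 5 libraries pooled equal weights of 3 biological replicates and captured polyadenylated RNA, which was sequenced from both ends on the Illumina MiSeq. With 1 pooled library per tissue no value has a replicate error, so each fold compares these libraries and no p-value is given. A seed holds the whole embryo with its root pole, its cotyledons and its shoot apex, together with the seed coat and the endosperm, whereas euphyllas are leaves alone. For every gene below, fewer cells of a type and less RNA per cell cannot be told apart.

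A seed that takes up water still carries transcripts laid down during its maturation, which encode storage proteins, oil body proteins and protectants against drying. It then turns to genes that loosen its cell walls and break down oil and protein, under the opposing control of abscisic acid, which holds germination back, and gibberellin, which promotes it. A young leaf builds the light harvesting apparatus and the enzymes that fix carbon, while its cells divide and its surface forms stomata and a cuticle. Brassica plants also hold glucosinolates, sulfur compounds that the myrosinase enzymes release as toxic or pungent products when tissue is damaged.

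The tables held 9563149 mapped reads for seeds and 6802615 for euphyllas, over 18309 and 17870 unigenes with at least 1 read. The normalized value is the read count divided by the size factor of the library, so that 1 read counted for 0.708 in seeds and 1.16 in euphyllas. All folds compare normalized values, and the interval in brackets after a fold is an exact 95% interval for counting error alone. It is too narrow, since mapped reads outnumber the trimmed pairs and a molecule can have been counted more than 1 time. A call of higher or lower, always of euphyllas relative to seeds, needed a fold of at least 2 and an interval without 1. Of the 16649 unigenes 4264 (25.6%) were called higher, 4068 (24.4%) lower and 8332 (50.0%) in either direction, with a median log2 ratio of -0.095 and quartiles of -0.98 and 1.04. The counts called in each gene list below are to be read against these shares. With an assumed variation of 0.4 between replicates edgeR's exact test called 1867 and 1342. A count of 0 was set to a floor of 3 reads, a value of 2.12 in seeds and 3.47 in euphyllas, and the fold is then a lower bound. Scaling by total reads moved the median of all unigenes by -0.21 and TMM scaling by 0.068, which left 43.3% and 53.8% of the calls higher against 51.2%.

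Several unigenes stood out for their share of the reads or for how they were assembled. A locus of the assembly that joined 32 unigenes took 5.55% of the reads in seeds and 1.02% in euphyllas, and its 2 most read unigenes without an *Arabidopsis* match, one of them matched to an endonuclease of a ribosomal RNA intron, took 2.89% and 0.322%. A locus of 115 unigenes with unrelated matches took 0.522% and 7.29%. Reads of joined transcripts cannot be told apart, which limits the values of the unigenes of these loci. Of those given below, *LHCB1.3*, *LHCB1.4*, *LHCB2.3*, *LHCB3*, *RBCS3B*, *RCA*, *ARP1*, *ACX2* and *AMY3* belonged to the locus of 115 and *PORB* and *RPT6A* to that of 32. The part of ribosomal RNA in the values of other unigenes was not tested. Over the whole assembly 3298 of the 19441 unigenes lay in loci with more than 1 unigene. Of all unigenes 6430 were longer than the matched gene with introns. Whether transcripts were joined in these was not tested, so the limit may reach further genes named below. Since a unigene stands for the best *Arabidopsis* match, the copies that *Brassica* has of most genes are not told apart. Whether reads of other copies mapped to the unigene was not tested, so a value need not be the total over copies. Close relatives such as the *LHCB1*, *LHCB2* and *RBCS* genes can share reads, and how reads placed more than once were divided is not given in the sources used here.

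**Figure D1:**
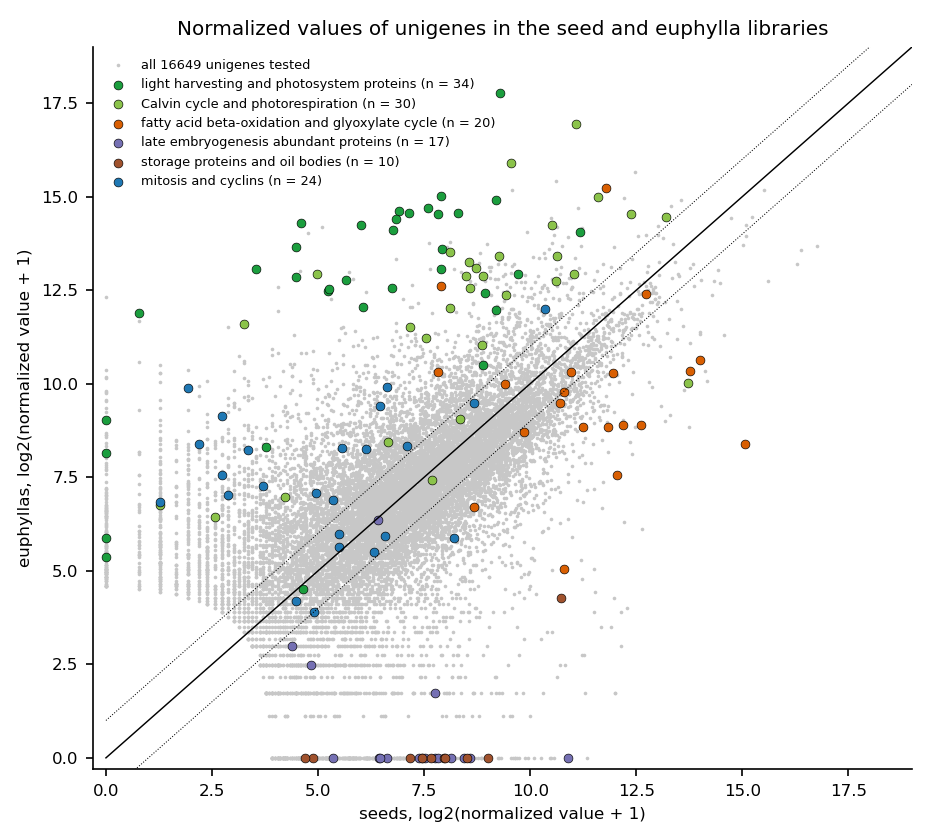
Normalized values of the 16649 unigenes in seeds (horizontal axis) and euphyllas (vertical axis), both as log2 of the value plus 1. The solid line marks equal values and the dotted lines a 2-fold difference, and colored points are members of 6 gene lists. Of the 10 storage and oil body genes 9 lie at the lower edge, and 33 of 34 light harvesting and photosystem genes lie above the upper dotted line.

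The 10 largest folds toward euphyllas came from unigenes with at most 33 reads in seeds. *PSAH2*, a subunit of photosystem I, had 1 read in seeds against 3256 in euphyllas and was 5317-fold (954 to 210085) higher, an interval set by the single seed read. *CA2*, a carbonic anhydrase, had 0 reads in seeds against 4434 in euphyllas, at least 2414-fold higher. *PSAO*, also of photosystem I, had 15 and 7362 reads in that order, 802-fold (486 to 1433) higher, and *NDF6*, needed for cyclic electron flow around photosystem I, had 2 and 1090 reads, 890.0-fold (246 to 7359) higher. The lipid transfer protein gene *LTP4* was 2161-fold (387 to 85401) higher with 1 and 1323 reads. *LHCB2.3*, of the light harvesting complex of photosystem II, had the most seed reads of this group but lay in the locus of 115 unigenes, with 33 reads in seeds against 17325 in euphyllas, 857-fold (610.3 to 1246) higher. The remaining leaders were *AEE4*, an acyl-activating enzyme (2 and 1262 reads, 1030.5-fold (285 to 8518)), *BCAT1*, an aminotransferase of branched-chain amino acids (2 and 1082 reads, 883-fold (244 to 7305)), the acid phosphatase AT4G29270 (1 and 541 reads, 883-fold (158 to 34959.8)) and *COL6*, a CONSTANS-like factor (2 and 912 reads, 745-fold (206 to 6158)).

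The 10 largest folds toward seeds came from unigenes with at most 6 reads in euphyllas. AT2G47780, described as a rubber elongation factor protein, had 5800 reads in seeds against 2 in euphyllas, 1776-fold (491 to 14667) lower in euphyllas. AT3G54940, a papain-like cysteine protease, had the same counts, 5800 and 2 reads, and the same fold. The unigene matched to *GSL-OH*, which hydroxylates the side chain of aliphatic glucosinolates in *Arabidopsis*, had 3530 reads in seeds against 2 in euphyllas, 1081-fold (299 to 8928) lower. The paper did not report this gene. The GDSL lipase AT5G55050 was 884-fold (158 to 34925) lower with 1443 and 1 reads, and the cytosolic aldolase AT2G36460 was 648-fold (298 to 1766) lower with 6349 and 6 reads. *AHG1*, a protein phosphatase that dampens the seed's response to abscisic acid, had 3643 reads in seeds against 0 in euphyllas, at least 744-fold lower. *PYK10*, the beta-glucosidase of ER bodies, had 1072 and 1 reads and was 656-fold (118 to 25952) lower. *MIOX1*, an inositol oxygenase (1042 and 1 reads, 638-fold (114 to 25226)), and *AIL1*, a relative of the growth regulator *ANT* (920 and 1 reads, 563-fold (101 to 22275)), followed, as did *EM6*, a late embryogenesis abundant protein gene (2696 and 0 reads, at least 550.3-fold). Over all unigenes 1164 were more than 10-fold and 131 more than 100-fold higher, against 785 and 94 lower.

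Transcripts dense in reads per unigene length also differed between the tissues. In seeds the densest unigene was the one matched to a ribosomal RNA intron endonuclease, and *Hsp81.4*, a cytosolic HSP90 chaperone, came next with 13386 per kb against 5445 in euphyllas, 2.46-fold (2.41 to 2.51) lower. The pair of elongation factor 1-alpha genes *A2* and *A3*, the ribosomal protein genes *RPL35AA*, *ARP1* and *SAG24*, the proteasome ATPase *RPT6A* of the 32-unigene locus and the glutathione transferase *GSTU21* were also among the densest in seeds. Of these, *A2*, *A3*, *RPL35AA*, *ARP1* and *SAG24* were not called, with folds between 1.09 and 1.8 toward seeds, and *GSTU21* was 13.7-fold (12.9 to 14.6) lower in euphyllas with 25101 and 1122 reads. In euphyllas the small Rubisco subunit *RBCS3B*, of the locus of 115 unigenes, was densest, with 74076 per kb against 914 in seeds. All other top ranks there were *LHCB1.4*, *LHCB2.3*, *RCA*, *LHCA2*, *PSBQ2*, *LHCB1.3*, *LHCB4.1*, *LHCB3* and a unigene without an *Arabidopsis* match. *RCA*, the activase of Rubisco and of the same locus, had 3069 reads in seeds against 108006 in euphyllas, 57.5-fold (55.4 to 59.6) higher.

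Storage and oil body genes were lower in euphyllas throughout. Of 19 listed genes 11 had a unigene and 10 were tested, and all 10 were called lower, against 24.4% of all unigenes (median log2 ratio -7.56, and -6.01 with counts of 0 at the floor), and 9 of them had no read in euphyllas. The list took 0.0538% of seed reads and 0.000235% of euphylla reads. *OLEO4*, an oleosin that coats oil bodies, was the most read, with normalized values of 1681 in seeds, 26.4 at 3 days, 38.9 at 7 days and 10.7 at 11 days in cotyledons, and 18.5 in euphyllas. It was 90.9-fold (55.9 to 159) lower in euphyllas and the single gene of the list still read there. The vicilin-like *PAP85* had 729 reads in seeds against 0 in euphyllas, at least 149-fold lower. Among the cruciferins, *CRA1* had 516 and 0 reads (at least 105-fold lower) and *CRC* 203 and 0 reads (at least 41.4-fold lower). The napin-type albumin *SESA3* had 350 and 0 reads, at least 71.4-fold lower, and *CLO1*, a caleosin of oil bodies, 358 and 0 reads, at least 73.1-fold lower. The seed library held far fewer reads of these genes, whose products are made before the seed dries, than of *ICL*, an enzyme of reserve use, with 48742 reads.

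Late embryogenesis abundant proteins, which protect cells as they dry, were lower in euphyllas with 1 exception. Of 17 tested 16 were called lower and 0 higher (median -7.37, or -5.64 at the floor), and 13 had no read in euphyllas. *EM6* had values of 1908 in seeds, 39.7 at 3 days, 4.2 at 7 days and 13.9 at 11 days in cotyledons, and 0 in euphyllas. AT3G53040 had 537 reads in seeds against 0 in euphyllas, at least 109.6-fold lower, *M10* had 490 and 0 reads, at least 100.02-fold lower, and AT5G44310 had 397 and 0 reads, at least 81-fold lower. The exception was *LEA14*, which was not called, with values of 84.2 in seeds, 84.4 at 3 days, 241 at 7 days and 3844 at 11 days in cotyledons, and 80.9 in euphyllas, so that its highest value lay in the oldest cotyledons. *EM1*, a close relative of *EM6*, was lower by 5.97-fold (2.15 to 23) on 39 and 4 reads.

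Regulators of seed maturation and dormancy were lower in 9 of 12 cases and higher in 0 (median -2.22). *ABI3*, a master regulator of the seed programme, had 457 reads in seeds against 0 in euphyllas, at least 93.3-fold lower, and *ABI4*, which mediates abscisic acid and sugar responses, 649 and 0 reads, at least 132-fold lower. *SOM*, which restrains germination in the dark, had 454 and 1 reads and was 278-fold (49.6 to 11004) lower. *RGL2*, the DELLA protein that holds germination back without gibberellin, was 5.42-fold (4.18 to 7.13) lower with 566 and 64 reads, and *PIF1*, a light-labile repressor of germination, 3.02-fold (2.52 to 3.64) lower with 715 and 145 reads. *ABI5*, which acts beside *ABI3*, differed less, with values of 155 in seeds, 76.3 at 3 days, 35.7 at 7 days and 89 at 11 days in cotyledons, and 72.8 in euphyllas (2.13-fold (1.6 to 2.86) lower). *MFT*, a regulator of germination, had 81 and 0 reads. The bZIP factors *EEL* and *AREB3* and the repressor *AFP2* were not called, at 151 and 112 reads, 332 and 117 reads and 40 and 29 reads. *FUS3* and *LEC1*, which direct embryo formation, had 1 and 10 reads in seeds and 0 in euphyllas and were not tested.

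Small heat shock proteins and other protectants of the seed were lower in 9 of 12 cases and higher in 0 (median -4.22, or -2.89 at the floor). *HSP23.6*, a mitochondrial chaperone, had values of 1805 in seeds, 40.7 at 3 days, 19.96 at 7 days and 5.36 at 11 days in cotyledons, and 4.62 in euphyllas and was 391-fold (152 to 1434) lower. The cytosolic chaperone *HSP17.6A* had 1133 reads in seeds against 0 in euphyllas, at least 231-fold lower. *HSP17.6C* was read in both tissues, with 1043 and 118 reads, and was 5.41-fold (4.47 to 6.6) lower. *PER1*, a seed peroxiredoxin, had 384 and 0 reads, at least 78.4-fold lower. *HSP101*, *HSP17.6B* and the raffinose synthase *RFO5* were not called, with folds between 1.29 and 1.75 in either direction.

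**Figure D2:**
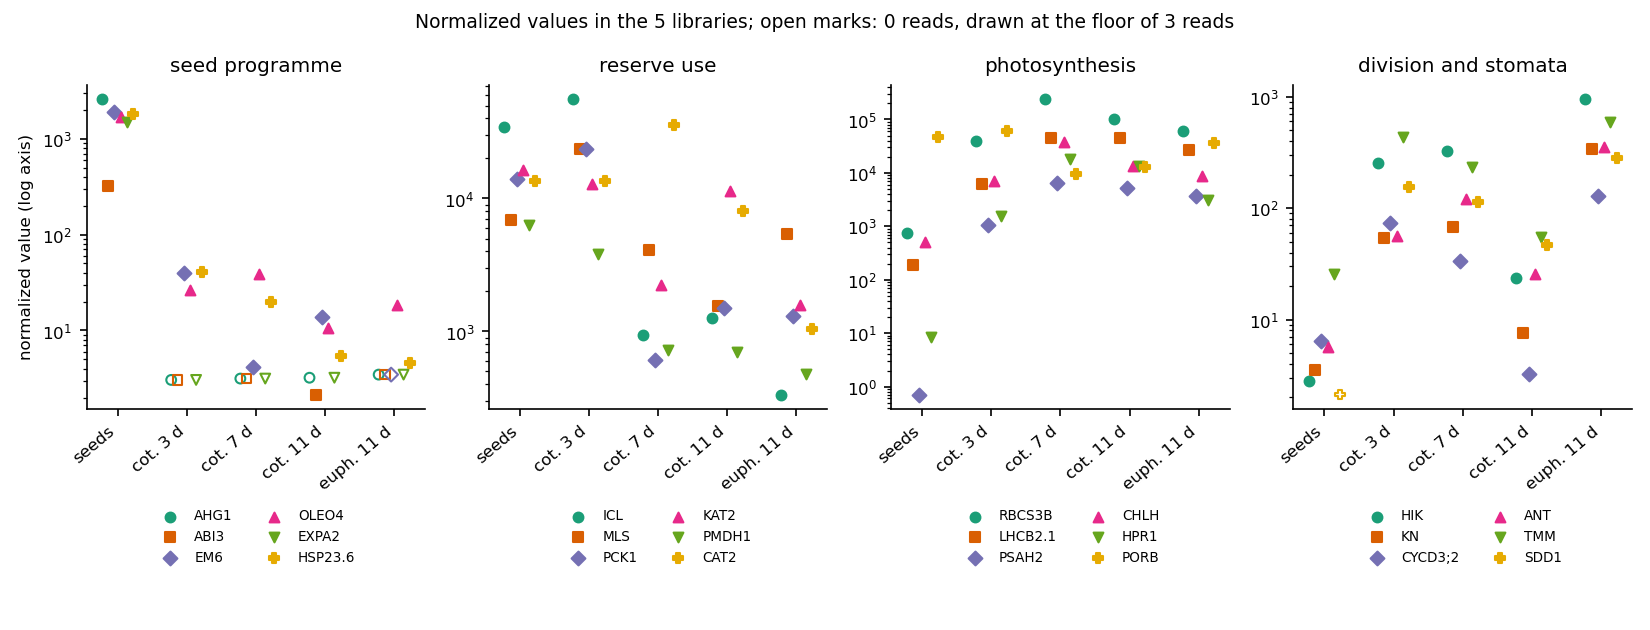
Normalized values (log axis) of 24 genes in the 5 libraries, in 4 panels for the seed programme, reserve use, photosynthesis, and division and stomata. Each mark is 1 pooled library and open marks are 0 reads drawn at the floor. *AHG1* is above the floor in seeds alone, *ICL* is highest in seeds and 3 day cotyledons, and *HIK* is highest in euphyllas.

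Of 19 abscisic acid receptors, phosphatases and kinases 10 were lower in euphyllas and 3 higher (median -1.19, but -0.44 among those alone in their locus). Among the receptors, *PYR1* had 2263 reads in seeds against 279 in euphyllas, 4.97-fold (4.38 to 5.64) lower, and *PYL5* had 1057 and 31 reads, 20.9-fold (14.6 to 30.9) lower. *PYL6* (999 and 168 reads, 3.64-fold (3.09 to 4.31) lower), *PYL4*, *PYL8* and *PYL9* were lower too, whereas *PYL1* was 4.18-fold (3.06 to 5.79) higher with 57 and 146 reads and *PYL7* 2.28-fold (2.09 to 2.47) higher with 970 and 1352 reads, the latter no longer called under total read scaling. Among the phosphatases, which shut the pathway off, *AHG1* had no read in euphyllas or in any cotyledon library, *HAI2* was 8.72-fold (5.33 to 15.2) lower with 242 and 17 reads, and *AHG3* was 3.35-fold (2.97 to 3.78) higher with 406 and 832 reads. *ABI1*, *ABI2*, *HAB1* and *HAB2* were not called, with folds of 1.05 to 1.47 in either direction. The kinase *SNRK2.3* was 2.28-fold (2.06 to 2.53) lower with 1764 and 473 reads, and *SNRK2.2* and the guard cell kinase *SNRK2.6* were not called, at 1760 and 792 reads and 90 and 98 reads.

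Of 9 genes of abscisic acid synthesis and breakdown 5 were higher and 3 lower (median 1.28, but -0.42 among those with at least 100 reads and 0.58 among those alone in their locus). The cleavage enzyme genes *NCED3* and *NCED5* had 1 and 63 reads and 0 and 80 reads, 103-fold (17.81 to 4127) and at least 43.5-fold higher. *ABA1*, the zeaxanthin epoxidase, was 2.43-fold (2.27 to 2.6) higher with 1451 and 2161 reads. The hydroxylase *CYP707A2*, which degrades the hormone in imbibed *Arabidopsis* seeds, was 10.8-fold (9.001 to 13) lower with values of 1546 in seeds, 141 at 3 days, 627 at 7 days and 41.8 at 11 days in cotyledons, and 143 in euphyllas. *CYP707A1* was also lower (1418 and 267 reads, 3.25-fold (2.85 to 3.72)), while *CYP707A3* was 2.51-fold (2.29 to 2.75) higher with 793 and 1218 reads, so members of 1 enzyme family stood on both sides.

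Gibberellin genes were lower in 8 of 18 cases and higher in 4, or 44.4% and 22.2% against 24.4% and 25.6% of all unigenes (median -0.83). Early steps of synthesis split, since *CPS* (135 and 10 reads, 8.27-fold (4.36 to 17.63) lower) and *KO* (864 and 35 reads, 15.1-fold (10.8 to 21.8) lower) were lower and *KS*, the enzyme between them, was 28.6-fold (12.7 to 79.6) higher with 6 and 105 reads. *KAO2* was 27.9-fold (15 to 58.6) lower with 456 and 10 reads, and *GA3OX1*, which makes the active hormone, 5.24-fold (3.29 to 8.79) lower with 171 and 20 reads. *GA2OX2*, which inactivates it, was 3.91-fold (2.92 to 5.29) higher with 66 and 158 reads. The receptor *GID1A* was 4.36-fold (3.31 to 5.83) lower with 420 and 59 reads, and *GID1B* and *GID1C* were not called, at 76 and 26 reads and 658 and 224 reads. Of the DELLA repressors, *RGL1* was 5.01-fold (4.01 to 6.31) lower with 728 and 89 reads like *RGL2*, while *GAI*, *RGA* and *RGL3* were not called, with 718 and 555 reads, 538 and 353 reads and 425 and 149 reads. With total read scaling *GID1B*, *GID1C* and *RGL3* were called lower.

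Genes listed for the loosening of walls around the germinating embryo were lower in 8 of 14 cases and higher in 2 (median -1.71). The list also held a cysteine protease, *CP1*, which is counted among those lower. *EXPA2*, an expansin of germinating seeds, had 2119 reads in seeds against 0 in euphyllas, at least 433-fold lower, and no read in any cotyledon library. The peroxidase *PER62* had 3490 and 5 reads and was 427-fold (183 to 1317) lower. *XTH5*, which cuts and rejoins xyloglucan, had 409 and 0 reads, at least 83.5-fold lower, and the cysteine protease *CP1*, 1399 and 0 reads, at least 286-fold lower. Other expansins were read in both tissues: *EXPA3* had 2422 and 356 reads (4.17-fold (3.73 to 4.67) lower), *EXPA9* had 1541 and 105 reads (8.99-fold (7.37 to 11.1) lower), and *EXPA15* was 6.3-fold (4.68 to 8.61) higher with 56 and 216 reads. Of the endo-mannanases *MAN7* was 2.58-fold (2.04 to 3.3) lower and *MAN6* 3.01-fold (2.01 to 4.57) higher, with 367 and 87 reads and 39 and 72 reads.

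Genes that turn stored oil into sugar were lower in 14 of 20 cases and higher in 3 (median -1.81), and the list took 1.63% of seed reads against 0.797% of euphylla reads. Most of its euphylla reads were of *ACX2*, whose unigene lay in the locus of 115 unigenes, which limits the latter share. *ICL*, the isocitrate lyase of the glyoxylate cycle, had values of 34489 in seeds, 55713 at 3 days, 949 at 7 days and 1257 at 11 days in cotyledons, and 335 in euphyllas and was 103-fold (91.7 to 116) lower in euphyllas. *MLS*, the malate synthase that follows it, was not called, with 6844 in seeds, 23376 at 3 days, 4077 at 7 days and 1552 at 11 days in cotyledons, and 5419.5 in euphyllas. *PCK1*, which starts sugar synthesis from the cycle's product, was 10.8-fold (10.1 to 11.4) lower with 19861 and 1129 reads. Citrate synthase of the peroxisome was lower in both copies, *CSY3* by 7.98-fold (7.21 to 8.86) and *CSY2* by 3.94-fold (3.15 to 4.98). Of the 5 libraries, 3 day cotyledons held the highest value of *ICL*, *MLS* and *PCK1*.

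The enzymes of beta-oxidation, which shortens fatty acids, were mostly lower. *KAT2*, the main thiolase, had 23267 reads in seeds against 1380 in euphyllas, 10.3-fold (9.78 to 10.9) lower, while its relative *KAT5* was 5.62-fold (4.96 to 6.39) higher with 322 and 1109 reads. *MFP2* was 9.86-fold (8.92 to 10.9) lower with 6634 and 412 reads, and the fatty acid activating enzymes *LACS6* and *LACS7* were 5.31-fold (4.78 to 5.9) and 54.6-fold (37.7 to 82.4) lower. Acyl-CoA oxidases *ACX1* (3.15-fold (2.95 to 3.36)) and *ACX3* (22.6-fold (19.3 to 26.6)) were lower and *ACX4* was not called. *ACX2* was 10.9-fold (10.6 to 11.2) higher with 5008 and 33462 reads, but its unigene of 4717 bp belonged to the locus of 115 unigenes that also held *LHCB1.4* and *RCA*. *ACX2* alone held 33462 of the 54195 euphylla reads of the whole list. Peroxisomal malate dehydrogenase split by copy, as *PMDH1* was 13.1-fold (11.9 to 14.5) lower with 8856 and 413 reads and *PMDH2* 26.5-fold (23.7 to 29.7) higher with 334 and 5420 reads. The lipase *SDP1*, which opens the oil bodies, was not called (955 and 880 reads). Of 9 vacuolar proteases, which break down storage proteins and later serve turnover, 6 were lower and 2 higher (median -1.20). The cysteine protease *RD19* was 4.63-fold (4.23 to 5.08) lower with 4015 and 531 reads and *BVPE*, the seed-type processing enzyme, 9.81-fold (7.52 to 13) lower with 929 and 58 reads, while *RD21A* was 10.6-fold (9.17 to 12.3) higher with 214 and 1389 reads and the aspartic protease *APA1* 13-fold (10.4 to 16.2) higher with 94 and 746 reads.

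**Figure D3:**
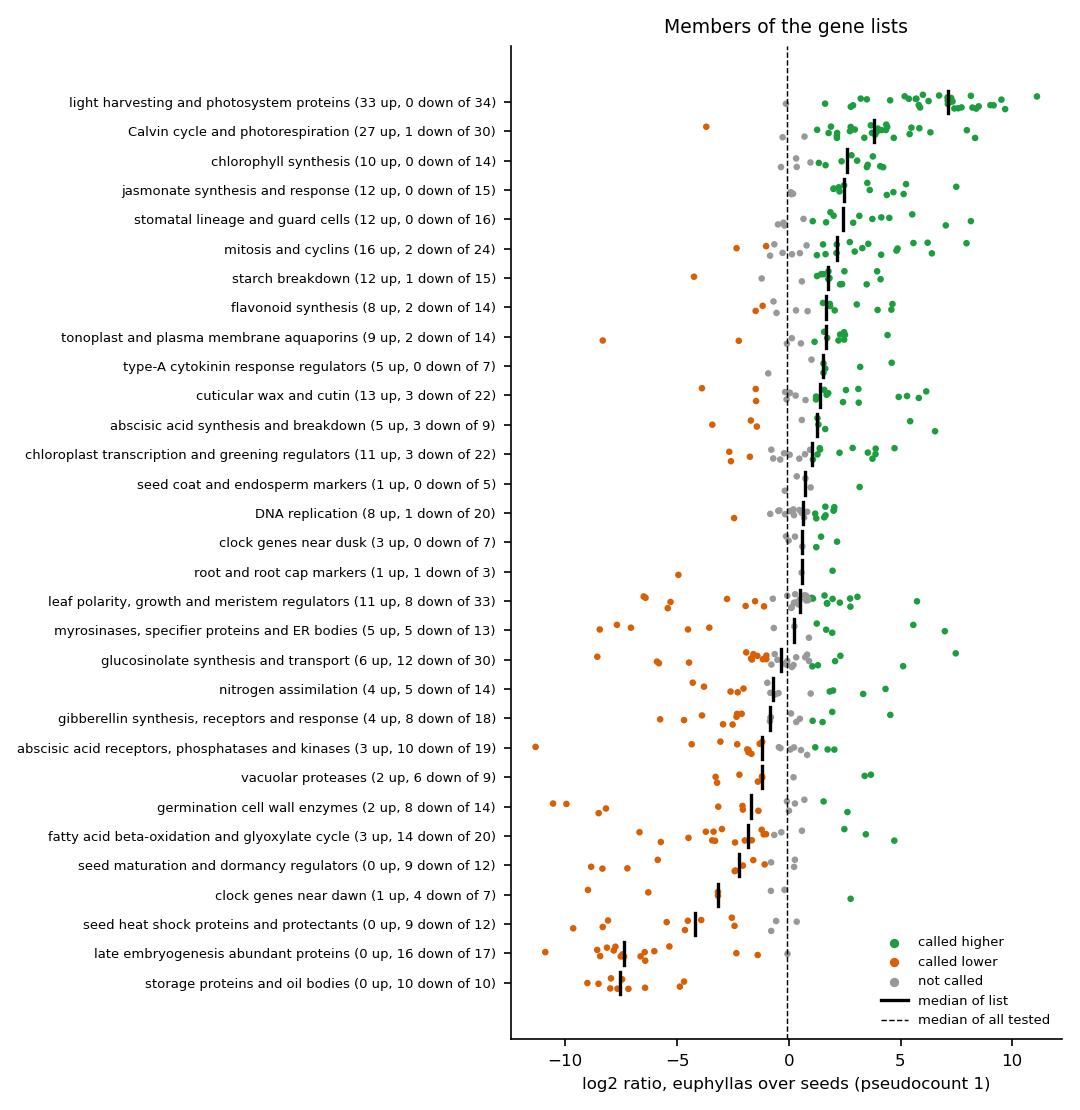
Log2 ratio of euphyllas over seeds (pseudocount 1) for each tested member of the 31 gene lists, 1 row per list, with black bars at list medians and a dashed line at the median of all tested unigenes (-0.095). Numbers beside each list give the members called higher (up) and lower (down). Light harvesting genes sit at the right (median 7.11) and storage genes at the left (median -7.56).

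Of 34 light harvesting and photosystem genes 33 were higher in euphyllas, against 25.6% of all unigenes, and 0 lower (median 7.11, or 7.09 at the floor), and the list took 0.123% of seed reads and 7.78% of euphylla reads. *LHCB1.4*, a chlorophyll-binding antenna protein of photosystem II whose unigene lay in the locus of 115, had values of 622 in seeds, 93907 at 3 days, 277547 at 7 days and 347469 at 11 days in cotyledons, and 225505 in euphyllas and was 363-fold (339 to 388) higher. The summed value of the list in euphyllas was 611403, so the limit of this locus extends to the share of the list. *LHCB2.1*, whose unigene was alone in its locus, had 190.3 in seeds, 6152 at 3 days, 44976 at 7 days and 45516 at 11 days in cotyledons, and 26438 in euphyllas and was 139-fold (123 to 157) higher. Both were higher in cotyledons of 7 and 11 days than in euphyllas. Among antenna proteins of photosystem I *LHCA3* was 52.5-fold (49 to 56.3) higher with 826 and 26558 reads, and *LHCA2* 303-fold (246 to 377) higher with 90 and 16693 reads. Of the photosystem I core, *PSAG* was 214-fold (184 to 251) higher, *PSAL* 602-fold (422 to 893), *PSAK* 162-fold (138 to 192) and *PSAD1*, which was already read 3290 times in seeds, 7.35-fold (7.07 to 7.63). In photosystem II the oxygen-evolving subunit *PSBQ2* was 106-fold (95.3 to 119) higher and *PSBS*, which dissipates excess light, 51.6-fold (46.3 to 57.6). *LHCB4.2* was the one member not called, with 34 and 19 reads and *LHCB4.1* beside it at 159 and 18798 reads.

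The carbon fixing and photorespiratory enzymes were higher in 27 of 30 cases and lower in 1 (median 3.79), at 0.683% of seed reads and 5.11% of euphylla reads. *RBCS3B*, again with the limit of its locus, had values of 751 in seeds, 39140.3 at 3 days, 239189 at 7 days and 100912 at 11 days in cotyledons, and 60816 in euphyllas and was 81-fold (76.2 to 86.2) higher. The summed value of the list in euphyllas was 402047, and the same limit extends to the share of the list. *GAPA2* and *FBA2* were read well in seeds, with 4404 and 28094 reads and 7554 and 20720 reads, and were 10.4-fold (10.1 to 10.8) and 4.48-fold (4.36 to 4.6) higher. *PRK*, an enzyme found in the Calvin cycle alone, was 20.6-fold (19 to 22.4) higher with 596 and 7522 reads, *SBPASE* 15.9-fold (14.7 to 17.2) with 673 and 6546 reads, and the chloroplast phosphatase *CFBP1* 259-fold (192 to 358) with 43 and 6820 reads. In photorespiration *HPR1* had 12 and 2659 reads (362-fold (207 to 701) higher), *AGT* 865 and 9423 reads (17.79-fold (16.6 to 19.1)) and *GOX1* 2243 and 9379 reads (6.83-fold (6.52 to 7.15)). *GLDP1*, of the glycine decarboxylase, differed least of the called ones, 2.41-fold (2.36 to 2.47) higher with 13251 and 19569 reads. *CAT2*, the catalase that removes the peroxide formed in peroxisomes, was lower, with values of 13420.2 in seeds, 13489.5 at 3 days, 35408 at 7 days and 8030.5 at 11 days in cotyledons, and 1037 in euphyllas and a fold of 12.9-fold (12.1 to 13.9). *RBCS1B* and *TKL1* were not called (291 and 147 reads, 459 and 458 reads).

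Chlorophyll synthesis was higher in 10 of 14 cases and lower in 0 (median 2.59), while the list took 0.878% of seed reads and 1.09% of euphylla reads. *PORB*, the light-dependent protochlorophyllide reductase, held 66348 of the 83923 reads of the list in seeds. It was not called, with values of 46947 in seeds, 62008 at 3 days, 9493 at 7 days and 12784 at 11 days in cotyledons, and 36826 in euphyllas. Its unigene of 6142 bp, against 1807 bp of the *Arabidopsis* gene, lay in the locus of 32 unigenes. *CHLH*, the large subunit of magnesium chelatase, was 17.1-fold (15.8 to 18.5) higher with 731 and 7655 reads, and *CHLD* 8.34-fold (7.83 to 8.9) higher with 1149 and 5870 reads, while *CHLI1* was not called (7445 and 5831 reads) and its relative *CHLI2* was 7.04-fold (6.19 to 8.02) higher with 289 and 1245 reads. *CRD1* (11.6-fold (10.8 to 12.4)), *CAO*, which makes chlorophyll b (18.8-fold (16.2 to 22)), and *GSA1*, of the first steps (2.54-fold (2.42 to 2.67)), were higher as well.

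Regulators of greening and light perception were higher in 11 of 22 cases and lower in 3, or 50% and 13.6% against 25.6% and 24.4% of all unigenes (median 1.02). *GLK1* and *GLK2*, activators of photosynthesis genes, were 15.1-fold (11.3 to 20.8) and 7.35-fold (5.82 to 9.37) higher, with 49 and 454 reads and 88 and 396 reads. Plastid sigma factor *SIG1* was 13.6-fold (11 to 17) higher with 95 and 791 reads, and *SIG6* 2.64-fold (2.39 to 2.92) higher, whereas *SIG2*, the most read of them in seeds, was not called (3999 and 1511 reads). *HY5*, which drives development in the light, was 6.09-fold (4.7 to 7.997) lower with values of 450.0 in seeds, 409.9 at 3 days, 114 at 7 days and 19.3 at 11 days in cotyledons, and 74 in euphyllas. The GATA factors *GNC* and *GNL*, which promote chloroplast development, were 6.8-fold (3.56 to 14.6) and 3.45-fold (2.1 to 5.95) lower, with 111 and 10 reads and 107 and 19 reads. Blue light receptors *PHOT1* and *PHOT2* were 4.83-fold (4.45 to 5.25) and 11.8-fold (9.42 to 14.9) higher, and *PHYB*, of red light, 2.44-fold (2.08 to 2.87), while *PHYA* was not called (1299 and 462 reads). *PIF4* and *PIF5*, growth factors under phytochrome control, were 28.6-fold (17.79 to 48.9) and 15.1-fold (11.8 to 19.5) higher, in contrast to *PIF1*.

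Genes of mitosis and of DNA replication were called higher in different shares. Of 24 mitotic genes and cyclins 16 were higher and 2 lower, or 66.7% and 8.33% (median 2.14). Of 20 replication genes 8 were higher and 1 lower, or 40% and 5% (median 0.63), beside 25.6% and 24.4% of all unigenes. The difference of these shares was not tested. *HIK*, a kinesin of the forming cell plate, had values of 2.83 in seeds, 252 at 3 days, 328 at 7 days and 23.59 at 11 days in cotyledons, and 949 in euphyllas and was 335-fold (130.4 to 1233) higher. *MAP65-3*, also of the cell plate, had 8 and 487 reads (99.4-fold (50.1 to 232) higher), and *KN*, the syntaxin of that plate, 5 and 291 reads (95-fold (40.3 to 295)). B-type cyclins *CYCB2;1* and *CYCB2;2* were 33.1-fold (16.4 to 77.9) and 80.8-fold (21.8 to 677) higher from 8 and 2 seed reads, while *CYCB1;2* and *CYCB1;3* were not called. Among D-type cyclins, which admit cells to the cycle, *CYCD3;1* was 9.88-fold (8.24 to 11.9) higher and *CYCD2;1* 5.12-fold (3.81 to 7.01) lower, with 137 and 829 reads and 418 and 50 reads. The spindle protein *TPX2* was 3.13-fold (2.96 to 3.31) higher with 1840 and 3527 reads.

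The replication helicase was higher in most subunits and by smaller folds. *MCM2* was 2.34-fold (2.17 to 2.54) higher with 1047 and 1503 reads, *MCM3* 3.01-fold (2.72 to 3.33), *MCM5* 3.14-fold (2.74 to 3.59), *MCM6* 2.27-fold (1.99 to 2.6), a call lost under total read scaling, and *MCM7* 4.14-fold (3.37 to 5.11), while *MCM4* was not called (690 and 488 reads). The sliding clamp *PCNA1* and the ribonucleotide reductase *RNR1* had more reads in seeds, 1148 and 395 reads and 2015 and 920 reads, and were not called, though *PCNA1* was lower with total read scaling. Small reductase subunits split, *TSO2* being 4.03-fold (3.49 to 4.66) higher and *RNR2A* 5.54-fold (4.1 to 7.62) lower, with 269 and 663 reads and 434 and 48 reads. All 20 tested genes of the list had at least 29 reads in seeds.

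**Figure D4:**
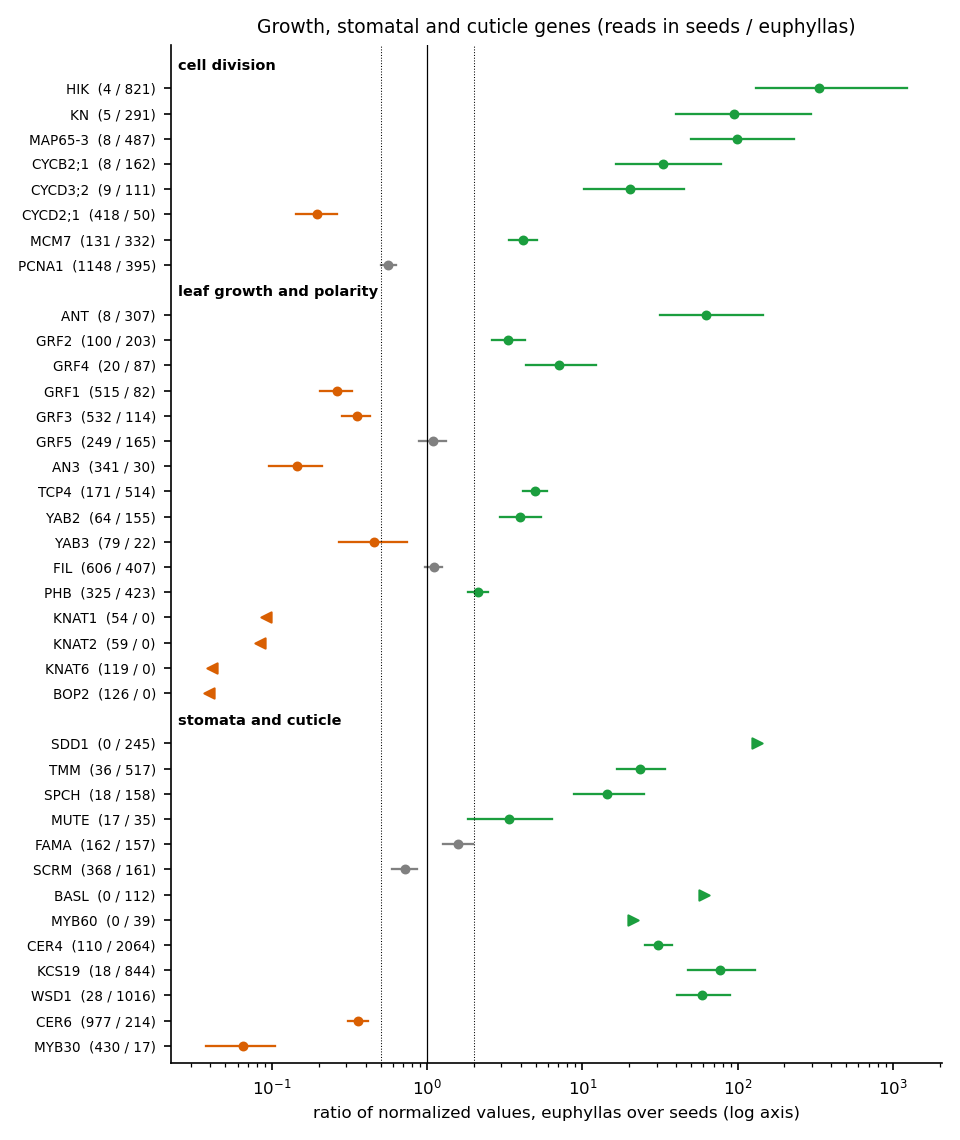
Ratio of normalized values, euphyllas over seeds (log axis), for genes of cell division, leaf growth and polarity, stomata and the cuticle, with 95% counting intervals and the reads of both libraries beside each name. Green marks are called higher, orange lower and gray not called, arrowheads are bounds from 0 reads, and dotted lines mark 2-fold. *HIK*, *SDD1* and *MAP65-3* lie farthest to the right, and *BOP2* and *KNAT6*, with no read in euphyllas, farthest to the left.

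Of 33 leaf and meristem regulators 11 were higher and 8 lower, or 33.3% and 24.2%, close to the 25.6% and 24.4% of all unigenes (median 0.49). *ANT*, which keeps leaf cells dividing, had 8 reads in seeds against 307 in euphyllas, 62.7-fold (31.4 to 146) higher. TCP factors that end cell division in leaves were higher, *TCP4* by 4.91-fold (4.12 to 5.87) with 171 and 514 reads and *TCP2* by 6.89-fold (5.23 to 9.2). The growth-regulating factors split, with *GRF2* 3.32-fold (2.6 to 4.26) and *GRF4* 7.1-fold (4.33 to 12.2) higher, *GRF1* 3.85-fold (3.04 to 4.92) and *GRF3* 2.86-fold (2.33 to 3.53) lower, and *GRF5* not called. Their partner *AN3* was 6.96-fold (4.79 to 10.5) lower with 341 and 30 reads. The KNOX genes *KNAT1*, *KNAT2* and *KNAT6*, which keep the shoot meristem undifferentiated, had 54, 59 and 119 reads in seeds and 0 in euphyllas, at least 11-fold, at least 12-fold and at least 24.3-fold lower, and so had *BOP2*, of organ boundaries (126 and 0 reads, at least 25.7-fold lower). *CLV1*, a receptor of the meristem, was 8.55-fold (6.73 to 11) higher with 81 and 424 reads, and its values of 57.3 in seeds, 320.4 at 3 days, 662 at 7 days and 1095 at 11 days in cotyledons, and 490.0 in euphyllas were highest in the oldest cotyledons. Of the polarity genes *PHB* was 2.13-fold (1.84 to 2.46) higher, a call lost under total read scaling, *YAB2* was 3.96-fold (2.94 to 5.38) higher and *YAB3* 2.2-fold (1.36 to 3.71) lower. *AS1*, *FIL*, *REV* and *KAN1* were not called, at 916 and 1028 reads, 606 and 407 reads, 315 and 271 reads and 127 and 47 reads. The epidermal factors *ATML1* and *PDF2* were 3.05-fold (2.5 to 3.72) and 2.04-fold (1.79 to 2.32) higher, the latter not under total read scaling.

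Stomatal lineage genes were higher in 12 of 16 cases and lower in 0 (median 2.44). *SDD1*, a protease that limits stomatal number, had 0 reads in seeds against 245 in euphyllas, at least 133-fold higher, and *TMM*, the receptor that spaces stomata, 36 and 517 reads, 23.45-fold (16.7 to 33.9) higher. *SPCH*, which starts the lineage, was 14.3-fold (8.78 to 24.8) higher with values of 12.7 in seeds, 105 at 3 days, 34.7 at 7 days and 2.14 at 11 days in cotyledons, and 183 in euphyllas, and *BASL*, which makes its divisions unequal, at least 61-fold higher with 0 and 112 reads. The receptor kinase *ER* was 3.64-fold (3.23 to 4.11) higher with 398 and 888 reads. *MUTE*, of the next step, was 3.36-fold (1.83 to 6.4) higher on 17 and 35 reads, and *FAMA*, of the last, was not called (162 and 157 reads), nor were *SCRM* and *SCRM2*, the partners of all of them (368 and 161 reads, 546 and 292 reads). *MYB60*, of guard cells, had 0 and 39 reads.

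Cuticle genes were higher in 13 of 22 cases and lower in 3 (median 1.403). *CER1* and *CER3*, which together make wax alkanes, were 5.38-fold (5.02 to 5.77) and 5.9-fold (5.36 to 6.51) higher with 1079 and 3555 reads and 536 and 1937 reads. *CER4*, for wax alcohols, was 30.6-fold (25.3 to 37.5) higher with 110 and 2064 reads, and *WSD1*, for wax esters, 59.3-fold (40.8 to 89.6) higher with 28 and 1016 reads. *KCS19*, an elongase of long chain fatty acids, was 76.6-fold (48.2 to 129.8) higher with values of 12.7 in seeds, 72.2 at 3 days, 168 at 7 days and 7.51 at 11 days in cotyledons, and 975 in euphyllas. *GPAT4*, for cutin, was 3.24-fold (3.05 to 3.43) higher with 1723 and 3414 reads. *CER6*, the main elongase of wax synthesis in *Arabidopsis* stems, was 2.8-fold (2.41 to 3.26) lower with 977 and 214 reads, and the regulators *MYB30* and *MYB96* were 15.5-fold (9.56 to 26.8) and 2.81-fold (1.84 to 4.44) lower.

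Of 30 genes of glucosinolate synthesis and transport 6 were higher and 12 lower, or 20% and 40% against 25.6% and 24.4% of all unigenes (median -0.34). Among aliphatic genes *MYB28*, their activator, had 3 reads in seeds against 93 in euphyllas and was 50.6-fold (16.8 to 249.9) higher, with values of 2.12 in seeds, 107 at 3 days, 102 at 7 days and 4.29 at 11 days in cotyledons, and 107 in euphyllas. *CYP83A1*, which oxidizes the aldoximes made from chain-elongated methionine, had 2 and 370 reads and was 302-fold (83 to 2504) higher. *GSTU20* was 4.96-fold (4.68 to 5.26) higher with 1550 and 4710 reads, *GSTF11* 4.4-fold (2.69 to 7.45) and *BCAT3*, of chain elongation, 2.47-fold (2.17 to 2.82). *FMOGS-OX5*, which oxidizes the side chain sulfur, was 2.3-fold (1.31 to 4.27) lower on 60 and 16 reads. *SOT17* was 2.02-fold (1.61 to 2.55) lower, a call lost with TMM scaling, and *SOT18* was not called (112 and 48 reads). *MYB29* had 0 reads in seeds and 6 in euphyllas and was not tested. The *GSL-OH* unigene, which is not counted in this list, lay far on the other side, as given above. The paper kept only glucosinolate unigenes above a limit of nucleotide identity to *Arabidopsis*. It reported *MYB28*, *MYB34*, *CYP81F2*, *IGMT2* and *UGT74B1* as not found. Beyond *FMOGS-OX* genes it identified no other gene of aliphatic side chain modification, the stage of *GSL-OH*. Here these names rest on the deposited best match alone.

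Indolic genes were mostly lower or not called. *CYP81F2*, which hydroxylates the indole ring, had values of 1257 in seeds, 17.3 at 3 days, 5.25 at 7 days and 233 at 11 days in cotyledons, and 2.31 in euphyllas and was 544-fold (150.4 to 4496) lower, and *CYP81F4* was 23.4-fold (13.8 to 43.1) lower with 535 and 14 reads. *CYP81F1* and *CYP81F3* had 78 and 83 reads in seeds and 0 in euphyllas, at least 15.9-fold and at least 16.9-fold lower. The methyltransferases *IGMT1* and *IGMT2*, which act on the same product, were 3.21-fold (2.07 to 5.2) and 3.06-fold (2.04 to 4.73) lower, and the activator *MYB51* 2.7-fold (1.79 to 4.2) lower with 128 and 29 reads, while *MYB34* was not called (89 and 60 reads). In the core pathway *CYP79B2* was not called (123 and 126 reads), *CYP83B1* was 2.01-fold (1.8 to 2.24) lower with 1359 and 415 reads, a call lost with TMM scaling, and *SOT16* was 2.08-fold (1.94 to 2.22) higher, a call lost with total read scaling. *GSTF9*, *GSTF10* and *TSB1* were not called, with folds of 1.16, 1.26 and 1.55 in that order, the first pair toward euphyllas. *CYP79B3* had 1 and 16 reads and was not tested.

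Of the genes that serve both branches, *GSH1*, which makes the glutathione precursor, was 3.22-fold (3.03 to 3.42) lower with 6614 and 1258 reads, and the others, *GGP1*, *SUR1* and *UGT74B1*, were not called (1103 and 646 reads, 253 and 90 reads and 242 and 262 reads). The transporter *GTR2* was 3.75-fold (3.35 to 4.21) lower with values of 1535 in seeds, 674 at 3 days, 1155 at 7 days and 4877 at 11 days in cotyledons, and 409 in euphyllas, and *GTR1* was not called (385 and 443 reads). In all libraries taken singly, the highest values of *GSH1*, *GTR2* and *GTR1* were in the 11 day cotyledons.

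**Figure D5:**
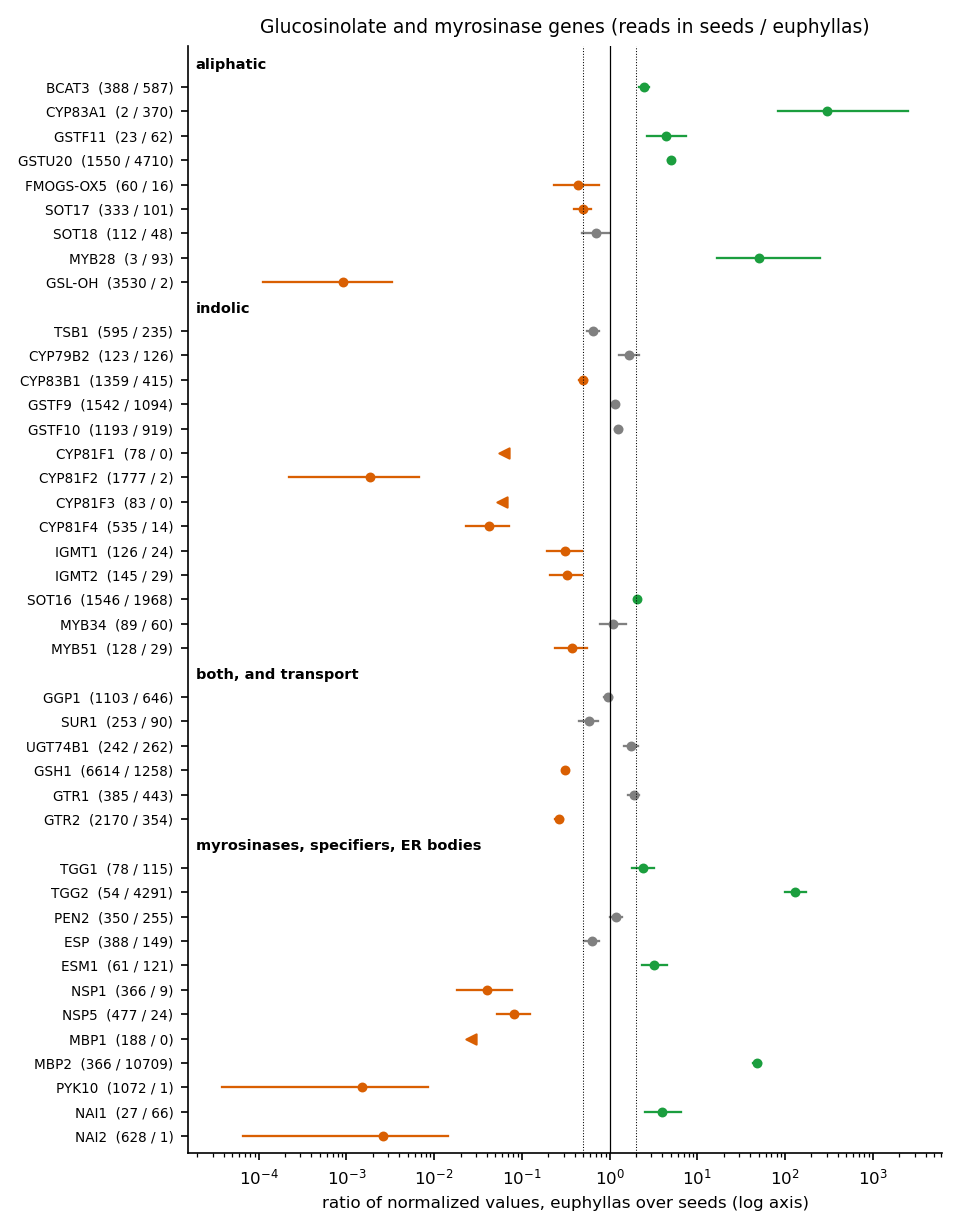
Ratio of normalized values, euphyllas over seeds (log axis), for glucosinolate and myrosinase genes, with 95% counting intervals and the reads of both libraries beside each name. Green marks are called higher, orange lower and gray not called, arrowheads are bounds from 0 reads, and dotted lines mark 2-fold. *CYP83A1*, *TGG2*, *MYB28* and *MBP2* lie farthest to the right, *GSL-OH*, *PYK10*, *CYP81F2* and *NAI2* farthest to the left.

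Genes of glucosinolate breakdown split evenly, 5 higher and 5 lower of 13 (median 0.25, but -0.21 among those with at least 100 reads and -0.67 among those alone in their locus). Each share was 38.5%, against 25.6% higher and 24.4% lower of all unigenes. The myrosinase *TGG2* was 129.8-fold (99.3 to 173) higher, with values of 38.2 in seeds, 1703 at 3 days, 1590.3 at 7 days and 818 at 11 days in cotyledons, and 4958 in euphyllas. *TGG1* was 2.41-fold (1.79 to 3.25) higher with 78 and 115 reads, and *MBP2*, a myrosinase-binding protein, 47.8-fold (43.1 to 53.2) higher with 366 reads in seeds against 10709 in euphyllas. *MBP1*, its relative, had 188 and 0 reads and was at least 38.4-fold lower.

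The specifier proteins, which decide into which product a glucosinolate breaks down, included *NSP1* and *NSP5*, of nitriles, 24.9-fold (13 to 54.9) and 12.2-fold (8.08 to 19.2) lower with 366 and 9 reads and 477 and 24 reads. *ESP* was not called (388 and 149 reads), and *ESM1*, which favors isothiocyanates, was 3.24-fold (2.36 to 4.48) higher, with values of 43.2 in seeds, 16886 at 3 days, 2650.1 at 7 days and 147 at 11 days in cotyledons, and 139.8 in euphyllas. ER bodies are stores of beta-glucosidase known from *Arabidopsis*. Their enzyme *PYK10* and their scaffold *NAI2* had 1072 and 1 reads and 628 and 1 reads (385-fold (68.8 to 15213) lower), while *NAI1*, the factor that activates both in *Arabidopsis*, was 3.99-fold (2.52 to 6.5) higher with 27 and 66 reads. The atypical myrosinase *PEN2* was not called (350 and 255 reads).

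Water channels and nitrogen enzymes differed by isoform. Of 14 aquaporins 9 were higher and 2 lower (median 1.65, but 0.34 among those alone in their locus). *TIP3;1*, the channel of storage vacuoles, had 452 reads in seeds against 0 in euphyllas, at least 92.3-fold lower, while *TIP1;2* had 3321 and 11300 reads, 5.56-fold (5.35 to 5.78) higher, and *TIP2;1* had 150 and 1985 reads, 21.6-fold (18.3 to 25.7) higher. In the plasma membrane *PIP2;1* was 4.73-fold (4.34 to 5.16) lower with 4577 and 593 reads, and *PIP1;2* 2.99-fold (2.84 to 3.15) higher with 2300 and 4216 reads. *PIP2;7* was 2.23-fold (2.11 to 2.35) higher with 2412 and 3288 reads, a call lost under total read scaling. Of 14 nitrogen genes 4 were higher and 5 lower, shares of 28.6% and 35.7% beside 25.6% and 24.4% of all unigenes (median -0.71). The cytosolic glutamine synthetases *GLN1;1* and *GLN1;3* were 13.9-fold (12.9 to 14.9) and 4.88-fold (4.66 to 5.11) lower with 18000 and 793 reads and 16033 and 2013 reads, whereas the chloroplast form *GS2* was 20.3-fold (16.8 to 24.7) higher with 118 and 1468 reads. Likewise the NADH-dependent glutamate synthase *GLT1* was 6.09-fold (5.83 to 6.36) lower with 23125 and 2326 reads, and the ferredoxin-dependent *GLU1* 10.1-fold (9.53 to 10.6) higher with 1508 and 9294 reads. Nitrate reductase split as well, *NIA1* 3.95-fold (3.76 to 4.15) higher and *NIA2* 19.8-fold (16.6 to 23.9) lower, with 2230 and 5394 reads and 4078 and 126 reads.

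Starch breakdown was higher in 12 of 15 cases and lower in 1 (median 1.78). *SEX4*, a phosphatase of starch granules, was 5.23-fold (4.93 to 5.56) higher with 1390 and 4454 reads, *PWD*, which phosphorylates them, 3.41-fold (3.2 to 3.64) with 1376 and 2873 reads, and *GWD1* 4.91-fold (4.43 to 5.45) with 492 and 1480 reads. The chloroplast beta-amylase *BAM3* was 18.7-fold (11.2 to 33.4) higher with 16 and 183 reads. *AMY2*, an alpha-amylase, was 22.8-fold (8.72 to 84.8) lower with 149 and 4 reads, and *AMY3* was 5.64-fold (4.97 to 6.4) higher but belonged to the locus of 115 unigenes.

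Jasmonate genes were higher in 12 of 15 cases and lower in 0 (median 2.48). *AOS*, which commits lipid peroxides to jasmonate, was 5.58-fold (4.93 to 6.33) higher with values of 234 in seeds, 343 at 3 days, 1847 at 7 days and 24458 at 11 days in cotyledons, and 1303 in euphyllas, and *OPR3* 4.84-fold (4.37 to 5.36) higher with 511 and 1513 reads. The lipoxygenase *LOX2* was 26.8-fold (18.7 to 39.9) higher with 31 and 509 reads. Of the JAZ repressors *JAZ5* was 231-fold (98.6 to 714) higher with 5 and 708 reads and *JAZ6* 21.2-fold (17.43 to 25.9) with 110 and 1426 reads, while *JAZ1* and *JAZ10* were not called (816 and 542 reads, 17 and 12 reads).

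Of 14 flavonoid genes 8 were higher and 2 lower (median 1.68, or 0.32 among those with at least 100 reads). Chalcone synthase *CHS*, the entry enzyme, was 2.8-fold (2.44 to 3.22) lower with values of 809 in seeds, 7113 at 3 days, 659 at 7 days and 81.5 at 11 days in cotyledons, and 289 in euphyllas, and *F3H* 2.26-fold (1.79 to 2.88) lower with 340 and 92 reads. The activators *MYB111* and *MYB12* were 31.7-fold (13.1 to 99.8) and 26.1-fold (6.67 to 225) higher, with 5 and 97 reads and 2 and 32 reads. Of 7 type-A response regulators, which cytokinin induces, 5 were higher and 0 lower (median 1.55). *ARR9* was 2.96-fold (2.33 to 3.76) higher with 111 and 201 reads, *ARR4* 10.05-fold (5.56 to 19.7) with 13 and 80 reads and *ARR16* 40.8-fold (10.7 to 346) with 2 and 50 reads.

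Clock genes were grouped by the time of day at which they peak. Of 7 genes that peak between dawn and midday in *Arabidopsis*, called dawn genes here, 4 were lower and 1 higher. Their median was -3.17, but -0.80 among those with at least 100 reads and -1.35 with a pseudocount of 10. Of 7 that peak toward dusk 3 were higher and 0 lower (median 0.61). Beside 25.6% higher and 24.4% lower of all unigenes, the shares were 14.3% and 57.1% for dawn and 42.9% and 0% for dusk. *LHY* had 716 reads in seeds against 0 in euphyllas, at least 146-fold lower, with a value of 2690.1 in 7 day cotyledons, and its partner *CCA1* was not called (75 and 26 reads) but was lower with total read scaling. *PRR9* had 109 and 0 reads, at least 22.2-fold lower, while *PRR7* was 6.83-fold (6.14 to 7.62) higher with 416 and 1741 reads. Through *PRR7* the summed value of the dawn genes was higher in euphyllas, at 2361 against 1329 in seeds. *TOC1*, of the evening, was 4.49-fold (3.94 to 5.12) higher with 312 and 857 reads and *GI* 2.35-fold (2.15 to 2.57) higher with 829 and 1193 reads. The hour of harvest and the tissue cannot be told apart for these genes.

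Markers of parts that seeds have and leaves lack were few. Of 13 genes of the seed coat and endosperm 5 had a unigene, of which 0 were called lower in euphyllas and 1 higher, with summed values of 4156 in seeds and 3982 in euphyllas. The subtilase *SBT1.7* had 5414 and 2933 reads, the proton pump *AHA10* 253 and 260 reads, *MUM4* 151 and 183 reads and *PMEI6* 52 and 41 reads, none of them called, and *MUM2* was 11.8-fold (4.16 to 46.4) higher with 4 and 29 reads. Of 12 root genes 6 had a unigene and 3 were tested. *RHD6*, which starts root hairs, had 42 and 0 reads (at least 8.57-fold lower), *SHR* was 3.93-fold (3.08 to 5.04) higher (96 and 231 reads) and *SCR* was not called (464 and 423 reads). *PLT1*, *WOX5* and *SMB*, which mark the root tip, had 3, 1 and 9 reads in seeds. Of the embryo markers, *ABI3*, *CRA1* and *OLEO1* were read in seeds with 457, 516 and 286 reads and not in euphyllas. *FUS3* and *LEC1*, given above, had too few reads to be tested. Of the leaf and shoot apex markers given above, *AS1*, *FIL* and *KAN1* were not called, and *YAB3* and *KNAT1* were lower in euphyllas. These markers also included *AS2*, *STM* and *CUC2*, and the embryo markers *DOG1*, whose values are not given here. Of the other polarity genes given above, *PHB* and *YAB2* were higher and *REV* was not called. The part of the seed coat and endosperm in the differences above was not tested.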

How the data were processed

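Each tissue (seeds, euphyllas and cotyledons of 3 ages) was sequenced as 1 library pooled from 3 biological replicates. The authors trimmed the reads, assembled all libraries with Velvet and Oases, kept transcripts that best matched *Arabidopsis* or nr entries as unigenes and mapped the reads back with Bowtie, and the sources used here name no versions of these tools. The deposited tables hold raw read counts per unigene and the normalized signal, which the authors obtained by dividing counts by the DESeq size factor of the library. Of these, the pair of seeds and euphyllas gave all folds and other pairs the cotyledon values. The RPKM columns, 20 in all, and the authors' own fold changes, p-values and false discovery rates were not used. Names and GO terms come from the authors' annotation.

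Depth was 9563149 reads in seeds and 6802615 in euphyllas. Folds are ratios of normalized values with exact conditional binomial (Clopper-Pearson) intervals at 95%, scaled by the size factors (Python 3.11.15, scipy 1.17.1). A call needed 20 reads together, a fold of 2 and an interval without 1. List medians are of the log2 ratio with a pseudocount of 1. The calling was tested on simulated data with counting error alone, which cannot show how it fares with variation between replicates.

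The comparison, the gene lists and the alternatives were chosen with earlier results of these data known. The 31 lists hold 617 genes, of which 540 had a unigene, 499 were tested, 227 were called higher and 143 lower. The naming rule took the 10 largest called folds up and down (200 reads or more, *Arabidopsis* match), then from every list its 4 most read called members, the glucosinolate genes that the study names, and the 10 unigenes densest in reads per kb in each library. It gave 173 unigenes, 157 of them called. Other list members were named after their values were seen.

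Alternatives were scaling by total reads and by TMM factors (R 4.3.3, edgeR 4.0.16), a 4-fold limit, a minimum of 100 reads or none, a stricter interval, halved counts, a pseudocount of 10, counts of 0 at the floor of 3 reads, and edgeR's exact test with an assumed coefficient of variation of 0.4 and an adjusted p limit of 0.05. Leaving out the 2 most crowded assembly loci, and keeping only unigenes alone in their locus, were chosen after seeing the data.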

Additional observations from a re-analysis of the deposited data

How the results depend on the processing

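No paired analysis was possible because each tissue is 1 pooled library. Counts of unigenes called higher and lower were 3765 and 4925 with total read scaling, 4467 and 3838 with TMM scaling, 3023 and 3098 with at least 100 reads, 4771 and 4270 with no minimum, 4069 and 3794 with the stricter interval and 4127 and 3876 with counts halved, against 4264 and 4068. They were 2354 and 1831 at 4-fold and 1867 and 1342 with edgeR's exact test. Without the 2 most crowded loci they were 4222 and 4049, and among unigenes alone in their locus 3467 and 3476. Of the 499 list members tested 370 were called, and 373, 371, 318 and 269 under total reads, TMM, at least 100 reads and alone in their locus. With total read scaling the medians of 4 GO groups changed sign, to -0.014 for water deprivation, -0.031 for jasmonic acid, -0.13 for salicylic acid and -0.090 for regulation of transcription. With at least 100 reads 4 medians changed sign, to -0.42 for abscisic acid synthesis and breakdown, -0.21 for myrosinases and ER bodies, -0.12 for salicylic acid and -0.028 for regulation of transcription, and with unigenes alone in their locus that of myrosinases and ER bodies to -0.67. Other medians moved by more than 1.5-fold without a change of sign. With a pseudocount of 10, which draws low values together, they came to -4.55 for storage proteins, -4.18 for late embryogenesis abundant proteins, -2.06 for seed heat shock proteins, 6.44 for light harvesting, 0.96 for flavonoids, -1.35 for dawn clock genes and -1.48 and -1.3999 for the plastid and mitochondrial genomes. With at least 100 reads they came to 0.32 for flavonoids, 1.27 for root markers and -0.80 for dawn clock genes, and with counts of 0 at the floor to -6.01, -5.64, -2.89 and -3.99 for storage, late embryogenesis abundant and seed heat shock proteins and dawn clock genes. Among unigenes alone in their locus they came to -6.63 for late embryogenesis abundant proteins, -0.44 for abscisic acid receptors, phosphatases and kinases, 0.58 for abscisic acid synthesis and breakdown, 0.34 for aquaporins and 2.73 for mitosis. These settings test fewer genes, shift all ratios alike or act on low counts, and no other cause was tested. With total reads *PIP2;7*, *PHB*, *PYL7*, *SOT16*, *PDF2* and *MCM6* were no longer called, and *A3*, *PHYA*, *CYCB1;3*, *HSP101*, *PCNA1*, *GID1B*, *GID1C*, *AREB3*, *RGL3* and *CCA1* were called lower. With TMM *SOT17* and *CYP83B1* were no longer called and *MUM4* was called higher, and with the stricter interval *FMOGS-OX5* was no longer called. All other genes named in the report kept their call under these 3 settings, and all of them with counts halved. Genes with few reads in 1 library have the widest intervals, and variation between plants could not be measured.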

Other observations

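Groups of unigenes by GO term showed further differences between the tissues, each read against 25.6% of all unigenes called higher and 24.4% lower. Of 47 tested unigenes of the proteasome, which degrades tagged proteins, 26 were lower in euphyllas and 0 higher (median log2 ratio -1.08), and of 256 of ubiquitin-dependent protein breakdown 82 were lower and 13 higher (-0.67). One proteasome unigene, *RPT6A*, belonged to the locus of 32 unigenes. The nucleolus had 91 lower and 21 higher of 259 (-0.63). Of the cytosolic ribosome most were not called, 75 of 92 in the large subunit (14 lower, 3 higher, -0.50) and 60 of 72 in the small one (11 lower, 1 higher, -0.53). Nucleosome unigenes, mostly histones, were higher in 20 and lower in 4 of 36 (1.33), and those of microtubule-based movement, mostly kinesins, higher in 39 and lower in 0 of 62 (1.38). Response to heat was lower in 73 and higher in 26 of 205 (-0.61), and response to cold higher in 142 and lower in 67 of 342 (0.46). Mitochondrial proteins were lower in 564 and higher in 336 of 1910 (-0.41), chloroplast stroma proteins higher in 287 and lower in 44 of 524 (1.23) and thylakoid membrane proteins higher in 172 and lower in 7 of 241 (2.38).

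Unigenes matched to the organelle genomes were lower in euphyllas, in contrast to nuclear genes for the chloroplast. Of 36 tested unigenes of the plastid genome 27 were lower and 2 higher (-2.58, or -1.48 with a pseudocount of 10), at 0.0683% of seed reads and 0.0181% of euphylla reads, and of 22 of the mitochondrial genome 15 were lower and 3 higher (-2.24, or -1.3999), at 0.169% and 0.0486%. Libraries were made from polyadenylated RNA, and the part of this capture in these values was not tested.

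A set of 90 unigenes had at least 20 reads in seeds and none in the other 4 libraries. After *AHG1* and *EXPA2*, the most read were *PGAZAT*, a polygalacturonase, with 1722 reads, the proton pump *AHA6* with 614, the cysteine protease AT2G34080 with 559, the peroxidase *PER13* with 501, *EIL4*, of the ethylene insensitive 3 family, with 249, and *CYP71B10* with 225. By the same measure 1 unigene was read in euphyllas alone, the ankyrin repeat protein AT5G54620 with 30 reads. The limit was in raw reads, though seeds had 9563149 and euphyllas 6802615. For euphyllas the other libraries included cotyledons of sprouts, whereas seeds had no other seed library beside them, so these numbers are not alike. Of the 384 tested unigenes matched only in nr 90 were higher and 113 lower in euphyllas, to be read beside the 25.6% higher and 24.4% lower of all unigenes tested.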
